A study of Mus musculus with 22 samples.

Results

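Genes of MHC class II antigen presentation and of dendritic cells, 10 in all, were described in mouse lung under hypoxia and the senolytic drug ABT-263. The 10 were picked by gene symbol from 54532 genes in the deposited table: H2-Aa, H2-Ab1, H2-Eb1, H2-DMa, H2-DMb1, Cd74, Ciita, Xcr1, Clec9a and Flt3. All 10 were in the table, and all 10 passed a filter on low counts that kept 16638 genes. Lungs came from young male C57BL6/j mice held for 8 days in normoxia or hypoxia, and each oxygen condition was given vehicle or ABT-263 at 50 mg/kg/day. The groups were normoxia vehicle (n = 5 libraries), normoxia ABT-263 (n = 6), hypoxia vehicle (n = 6) and hypoxia ABT-263 (n = 5). The oxygen level, the route of the drug and whether each library was 1 mouse are not given in the sources used here. ABT-263 (navitoclax) inhibits anti-apoptotic proteins of the BCL2 family and kills cells that depend on them, which is why it is used against senescent cells.

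MHC class II molecules are pairs of an alpha and a beta chain that display peptides from engulfed proteins to CD4+ T cells. The invariant chain, encoded by Cd74, holds the pair in the endosome, and the H2-DM heterodimer then exchanges the remnant of that chain for a peptide. Transcription of these genes depends on CIITA, a coactivator that binds no DNA itself and is recruited by factors bound to a shared promoter module, the X and Y boxes. In lung the molecules are carried by dendritic cells, B cells, macrophages and part of the alveolar epithelium. Type 1 conventional dendritic cells (cDC1), which present antigen from dead cells to CD8+ T cells, are marked by the chemokine receptor XCR1 and by CLEC9A, a receptor for exposed actin filaments. FLT3 is the receptor tyrosine kinase through which FLT3 ligand drives dendritic cell development.

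Promoter stretches with letters like the X and Y boxes are shown for the class II genes in which a search found them, among them the DM beta chain pair on which the results turn. Promoters were taken from RefSeq on GRCm38.p6, 250 bases before to 50 bases after each start site, and searched on both strands for CTNNNAAC followed by 24 to 30 bases and ATTGG, letters chosen after these sequences had been seen. Of the 10 members, 7 had a promoter in the table and 3 of those held the pattern. In all, 111 of 32851 promoters (0.338%), from 100 genes, held it. Members are counted here as genes and the whole as promoters. Because the letters were chosen with these sequences seen, the shares are no test. The stretches that hold the pattern lie on chromosome 17, at chr17:34287859-34287915 on the minus strand for H2-Aa and, on the plus strand, at chr17:34305765-34305820 for H2-Eb1 and chr17:34238807-34238860 for H2-Ob. For H2-DMb1 and its paralog H2-DMb2 only the first 30 of 57 bases are printed, at chr17:34153086-34153115 and chr17:34145115-34145144 on the plus strand, which hold the first box and end before ATTGG. Capitals mark CTNNNAAC and ATTGG.
H2-Aa: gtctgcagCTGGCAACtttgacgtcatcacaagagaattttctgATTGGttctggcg
H2-Eb1: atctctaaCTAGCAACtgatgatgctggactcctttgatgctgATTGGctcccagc
H2-DMb1: aggtttacCTAGTAACtgatgatgctaggc
H2-DMb2: aggtttacCTATTAACcgatgatgctaggc
H2-Ob: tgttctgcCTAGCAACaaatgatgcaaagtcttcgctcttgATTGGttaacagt
The first capital lies 84 bases before the RefSeq start site in H2-Aa, 94 in H2-Eb1, 97 in H2-DMb1, 126 in H2-DMb2 and 90 in H2-Ob. In GENCODE M21, whose models of the DM beta genes begin further upstream, all 57 bases of the H2-DMb1 stretch are exonic, and the H2-DMb2 stretch lies inside the gene and outside its exons. Over the whole stretch from flank to flank, H2-DMb1 and H2-DMb2 were identical at 50 of 57 positions. The windows of H2-DMa, Xcr1, Clec9a and Flt3 held no match to these letters, and neither did those of the class II genes H2-Oa and H2-Eb2, searched outside the 10.

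Total counts per library ran from 11509007 to 15744193. In 3 libraries, replicate 1 of normoxia ABT-263, of hypoxia vehicle and of hypoxia ABT-263, the title and the treatment tag name different treatments; the title was used. The labels do not say that libraries of a group came from separate animals, so p-values measure the spread between these samples. A log2 fold change is given with its standard error (SE) and a p-value from edgeR's quasi-likelihood test, adjusted by Benjamini-Hochberg over the 16638 genes, and a gene is said to have risen or fallen where that p was under 0.05. In bulk lung, fewer cells of a type and less RNA per cell cannot be told apart.

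The 10 genes together held 0.269% ± 0.0388 (SD, n = 5) of all counts in normoxia vehicle, 0.224% ± 0.0309 (SD, n = 6) in normoxia ABT-263, 0.248% ± 0.0411 (SD, n = 6) in hypoxia vehicle and 0.249% ± 0.0339 (SD, n = 5) in hypoxia ABT-263. CPM are counts scaled to the library size after adjustment by a scaling factor for each library (TMM). Per kilobase of merged exon in normoxia vehicle, Cd74 was the highest at 641.6 ± 117 CPM per kb (SD, n = 5). H2-Ab1 followed at 199.5 ± 21.4, H2-Eb1 at 174 ± 23.3 and H2-Aa at 149.5 ± 15.9 CPM per kb (SD, n = 5 each). The ranges of H2-Ab1 and H2-Eb1 overlapped, as did those of H2-Eb1 and H2-Aa, while every H2-Ab1 value (171 to 220.3) lay above every H2-Aa value (133.3 to 167.3). These genes were measured in the same 5 libraries, and overlapping ranges do not show whether neighbours differed within each library. The H2-DM chains, which act in the endosome, were lower on the same scale, H2-DMb1 at 36.6 ± 4.47 and H2-DMa at 17.1 ± 2.57 CPM per kb. Clec9a had 8.07 ± 0.926, Ciita 2.255 ± 0.265, Flt3 0.894 ± 0.0858 and Xcr1 0.8495 ± 0.172 CPM per kb (SD, n = 5 each), the last pair with overlapping ranges.

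**Figure D1:**
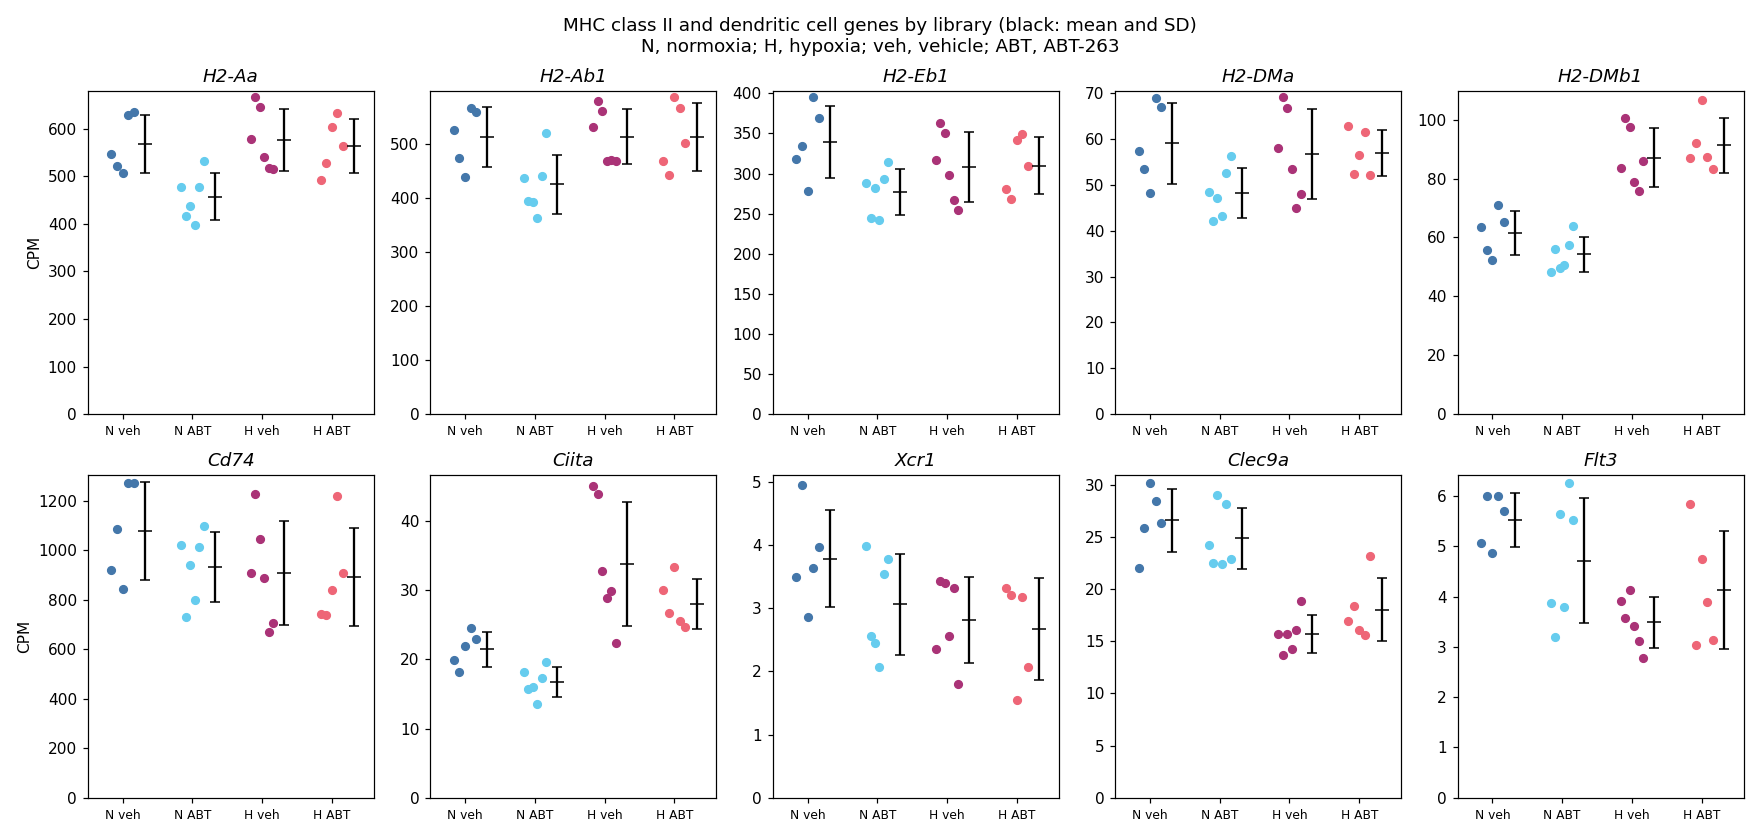
Each panel is 1 gene, with CPM on a linear axis from 0; points are the 22 libraries in 4 groups, and black bars are the mean and SD. H2-DMb1 is higher and Clec9a lower in every hypoxia vehicle library than in every normoxia vehicle library, while the H2-Aa, H2-Ab1 and Cd74 points of those groups overlap.

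Hypoxia split the 10 genes. With vehicle, H2-DMb1 and Ciita rose, Clec9a and Flt3 fell, and the other 6 did not pass the test, among them all 3 classical chains and Cd74. That is 4 of 10 members against 26.3% of all genes tested, 2 higher against 13.5% and 2 lower against 12.8%. Groups did not overlap in 3 members, against 14.0% of all genes. With ABT-263 in both groups, H2-Aa, H2-Ab1, H2-DMb1 and Ciita rose and Clec9a fell, 5 of 10 against 39.2% of all genes, 4 higher against 17.9% and 1 lower against 21.3%. Of the members 2, H2-DMb1 and Ciita, did not overlap between those groups, against 17.6%. Averaged over both treatments, H2-Aa, H2-DMb1 and Ciita were higher and Clec9a and Flt3 lower, 5 of 10 against 49.0%, with 3 higher against 23.0% and 2 lower against 26.0%. With 10 members, each of these shares differed from that of all genes by few genes, and the difference was not tested. The median log2 fold change of the 10 was -0.10 with vehicle and 0.20 with ABT-263, and that of all genes tested -0.0038 and -0.023.

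**Figure D2:**
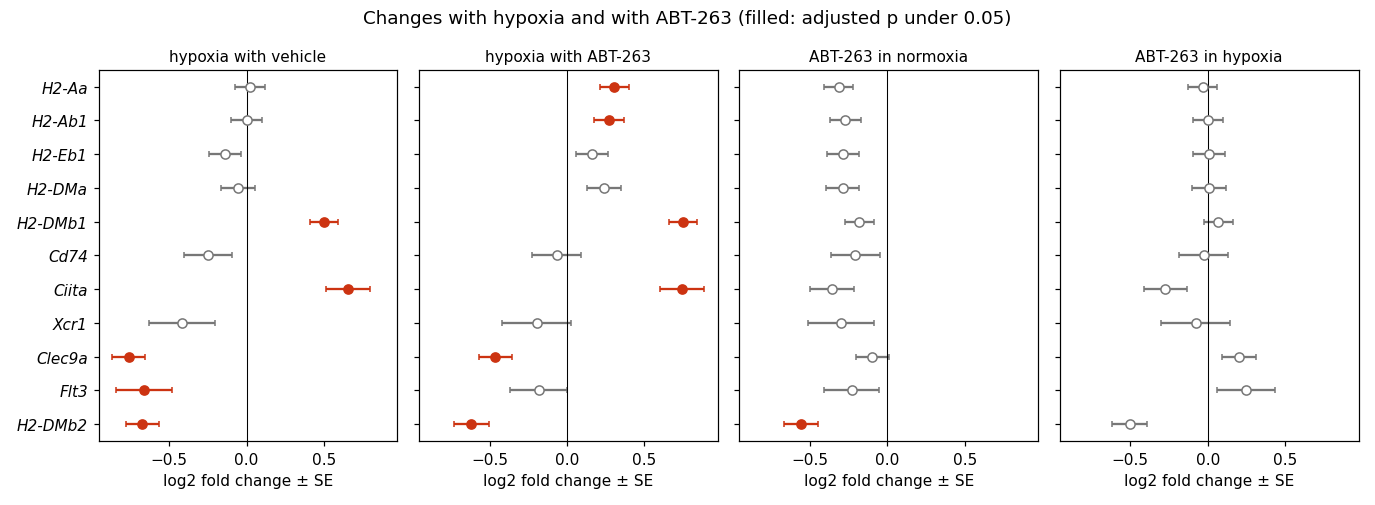
The x axis is the log2 fold change with its SE from edgeR in 4 comparisons; rows are the 10 genes and the paralog H2-DMb2, and filled red points have an adjusted p under 0.05. H2-DMb1 and H2-DMb2 lie on opposite sides of 0 in both hypoxia comparisons, and in normoxia all 10 genes lie below 0 with ABT-263 though none is filled.

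The classical chains pair as I-A (H2-Aa with H2-Ab1) and I-E (whose beta chain is H2-Eb1), the peptide-holding molecules of the cell surface. C57BL/6 mice lack a working I-E alpha chain; its pseudogene H2-Ea-ps was in the table but below the count filter. H2-Aa had 547, 522, 506, 629 and 635 CPM in the 5 normoxia vehicle libraries, and 515, 559 and 666 CPM as the lowest, median and highest of the 6 hypoxia vehicle libraries. Those groups overlapped across nearly their whole range, and the log2 fold change was 0.02 ± 0.09 (SE, adjusted p = 0.889 by edgeR), with a 95% interval from -0.17 to 0.22. H2-Ab1 differed by 0.00041 ± 0.10 (interval -0.20 to 0.20) and H2-Eb1 by -0.14 ± 0.10 (interval -0.35 to 0.08).

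The I-A chains were higher in hypoxia than in normoxia when both groups had ABT-263. H2-Aa had 398, 457 and 532.9 CPM (lowest, median, highest) in normoxia ABT-263 and 492.8, 527.5, 604, 633 and 564 CPM in hypoxia ABT-263, so the highest normoxia library lay above the 2 lowest hypoxia libraries. Its log2 fold change was 0.31 ± 0.09 (adjusted p = 0.0119, edgeR). H2-Ab1 rose by 0.27 ± 0.10 (adjusted p = 0.0305, edgeR), a call lost without replicate 3 or 4 of normoxia ABT-263 or replicate 3 or 4 of hypoxia ABT-263, when the value fell as low as 0.22 (adjusted p = 0.0994). H2-Eb1 was at 0.16 ± 0.10 (adjusted p = 0.228, edgeR). The hypoxia vehicle and hypoxia ABT-263 means of H2-Aa were 577 ± 65.2 (SD, n = 6) and 564 ± 56.5 CPM (SD, n = 5), and that of normoxia ABT-263, 457 ± 49.4 CPM (SD, n = 6), was the lowest of the 4.

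Of the peptide-loading genes, H2-DMb1 alone passed the test with hypoxia. Cd74, the invariant chain, had 918, 1086, 842, 1269 and 1272 CPM in normoxia vehicle and 668, 898 and 1227 CPM (lowest, median, highest) in hypoxia vehicle. The overlap was wide, and the change of -0.25 ± 0.16 did not pass (adjusted p = 0.256, edgeR). H2-DMa, the DM alpha chain, had 57.4, 53.6, 48.2, 69.0 and 67.1 CPM in normoxia vehicle against 45.0, 55.7 and 69.1 CPM (lowest, median, highest) in hypoxia vehicle, a change of -0.06 ± 0.11 (adjusted p = 0.741, edgeR). With ABT-263 in both groups H2-DMa was at 0.24 ± 0.11 (adjusted p = 0.0829, edgeR), which came under the threshold at 0.0271 when only the groups compared were fitted. Its exons share 360 bases with Brd2 on the other strand.

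H2-DMb1 encodes the DM beta chain and lies at chr17:34153072-34160230 on GRCm38. It had 63.5, 55.6, 52.4, 70.95 and 65.4 CPM in normoxia vehicle, and 75.7, 84.8 and 101 CPM (lowest, median, highest) in hypoxia vehicle. Every hypoxia library lay above every normoxia library of the vehicle groups, and the log2 fold change was 0.50 ± 0.09 (1.41-fold, adjusted p = 3.15e-04, edgeR). With ABT-263, 48.2, 53.4 and 64.0 CPM (lowest, median, highest) in normoxia stood against 86.9, 92.0, 107, 87.2 and 83.3 CPM in hypoxia, again without overlap. That change was 0.75 ± 0.09 (1.68-fold, adjusted p = 1.12e-06, edgeR), and each of the 22 fits that left out 1 library kept both calls.

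H2-DMb2, the other gene for a DM beta chain, ends 1517 bases before H2-DMb1 begins and moved the opposite way. It had 35.7, 29.97, 36.4, 48.2 and 31.6 CPM in normoxia vehicle and 19.9, 21.9 and 26.5 CPM (lowest, median, highest) in hypoxia vehicle. The groups did not overlap, and the gene fell by 0.67 ± 0.11 on the log2 scale (adjusted p = 6.73e-05, edgeR). With ABT-263 it fell by 0.62 ± 0.11 (adjusted p = 1.58e-04). Counts of both genes were whole numbers in all 22 libraries (tolerance 0.005), so no fraction of a read had been assigned to either.

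The ratio of H2-DMb1 to H2-DMb2 counts, examined after these values had been seen, separated both hypoxia groups from each other and from both normoxia groups. It was 1.78, 1.85, 1.44, 1.47 and 2.07 in normoxia vehicle and 1.88, 2.25 and 2.40 (lowest, median, highest) in normoxia ABT-263. In hypoxia vehicle it was 3.14, 3.76 and 4.92 (lowest, median, highest), and in hypoxia ABT-263 it was 5.36, 5.72, 5.99, 5.82 and 5.45. Group means were 1.72 ± 0.265 (SD, n = 5), 2.21 ± 0.185 (SD, n = 6), 3.85 ± 0.614 (SD, n = 6) and 5.67 ± 0.259 (SD, n = 5) in that order, and only the normoxia groups overlapped each other. On the log2 scale hypoxia raised the ratio by 1.16 ± 0.13 with vehicle and by 1.36 ± 0.06 with ABT-263 (SE, two-sided exact permutation p = 0.00216 each, the smallest that 462 regroupings allow, adjusted over 4 comparisons 0.00433).

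The same ratio was higher with ABT-263, by 0.37 ± 0.11 in normoxia (exact permutation p = 0.00649, adjusted 0.00649) and by 0.57 ± 0.10 in hypoxia (exact permutation p = 0.00433, adjusted 0.00577). With treatment read from the tag these became 0.278 (exact permutation p = 0.0758) and 0.288 (exact permutation p = 0.167). Because the test was chosen with the values in view, it describes the separation and is no independent evidence of it. The comparisons share groups: normoxia vehicle enters both hypoxia with vehicle and ABT-263 in normoxia, for example.

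**Figure D3:**
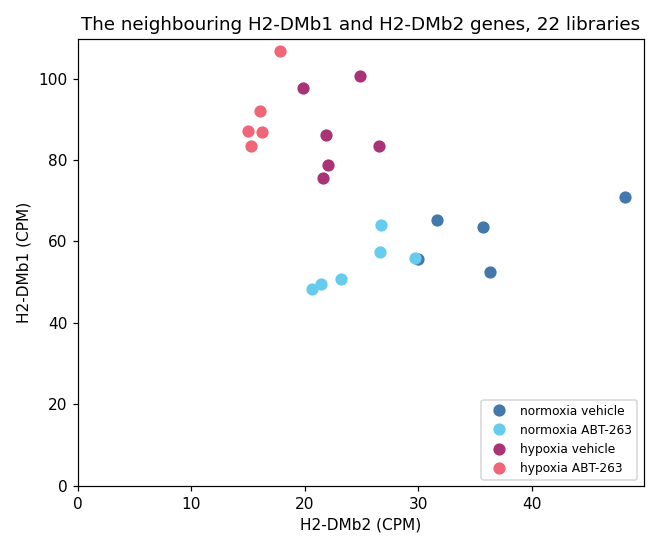
Each point is 1 of 22 libraries, with H2-DMb2 in CPM on the x axis and H2-DMb1 in CPM on the y axis, both linear from 0, coloured by group. Hypoxia libraries lie above and to the left of normoxia vehicle, and the hypoxia ABT-263 libraries have the lowest H2-DMb2 of all, between 15.0 and 17.8 CPM.

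Genes whose levels ran with each paralog differed. Over the 22 libraries, which share the group differences, the genes most alike to H2-DMb2 in log2 CPM included Cd37 (r = 0.965), Rhoh, the B cell gene Fcer2a (r = 0.961), Fcrla and the B cell receptor component Cd79b (r = 0.957). H2-DMb1 was most alike to Tmsb10 (r = 0.936), Cd200r4, Dscr3 and the macrophage mannose receptor gene Mrc1 (r = 0.922). After group means were removed, r for H2-DMb1 was 0.655 with Tmsb10 and 0.403 with Mrc1. For H2-DMb2 it was 0.768 with Fcer2a and 0.777 with Cd79b. Of all genes tested, 13.5% rose and 12.8% fell with hypoxia under vehicle, and 21.3% fell under ABT-263. Of 12 B cell genes, 12 fell with hypoxia under vehicle and 12 under ABT-263, and their summed level went from a range of 375 to 657 CPM in normoxia vehicle to 242 to 341 CPM in hypoxia vehicle and 140 to 179 CPM in hypoxia ABT-263. Of 10 alveolar macrophage genes, 5 rose and none fell with hypoxia under vehicle, with summed levels of 876 to 1254 CPM in normoxia vehicle and 1291 to 1539 CPM in hypoxia vehicle. Of 9 interstitial macrophage genes, 3 rose and 1 fell, and their summed levels overlapped, at 258 to 404 CPM in normoxia vehicle and 250 to 320 CPM in hypoxia vehicle. Of 8 monocyte genes 7 fell, with summed levels of 227 to 409 CPM in normoxia vehicle and 163 to 189 CPM in hypoxia vehicle. The part of any of these cell types in the DM ratio was not tested.

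Ciita, the transactivator, is at chr16:10480059-10528418. It had 19.9, 18.1, 21.998, 24.5 and 23.0 CPM in normoxia vehicle and 22.4, 31.3 and 45.1 CPM (lowest, median, highest) in hypoxia vehicle. The hypoxia libraries were the more scattered, and the lowest of them fell within the normoxia range. The log2 fold change was 0.66 ± 0.14 (1.58-fold, adjusted p = 0.00139, edgeR). With ABT-263 the levels were 13.6, 16.7 and 19.7 CPM (lowest, median, highest) in normoxia and 30.1, 26.7, 33.3, 25.5 and 24.6 CPM in hypoxia, without overlap, a change of 0.74 ± 0.14 (adjusted p = 2.48e-04, edgeR). Its exons share 329 bases with Dexi on the other strand, and whether reads were counted by strand is not given in the sources used here.

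Around Ciita, the interferon-gamma response list, a pathway known to induce CIITA, was mixed with hypoxia under vehicle. Of 17 genes tested, 2 rose and 2 fell, against 13.5% and 12.8% of all genes. The interferon receptor chain Ifngr1 rose by 0.58 ± 0.07 and the guanylate-binding protein gene Gbp4 by 0.96 ± 0.20, while the kinase gene Jak1 fell by 0.37 ± 0.08 and the transcription factor gene Irf1 by 0.29 ± 0.06. Under ABT-263, 6 of 17 rose and 1 fell, against 17.9% and 21.3% of all genes, and Gbp4 rose by 1.46 ± 0.20. Ifng itself was below the count filter. Over all 22 libraries the gene most alike to Ciita was Gbp4 (r = 0.927), and after each group's mean was removed it was Inpp1 (r = 0.787), followed by Npas2, the peptide transporter gene Tap1 (r = 0.757), Gbp6 and Gvin1.

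The factors that recruit CIITA to the X and Y boxes did not rise in either hypoxia comparison. Of the 7 listed (Rfx5, Rfxap, Rfxank, Nfya, Nfyb, Nfyc and Creb1), none passed the edgeR test with vehicle, where 6 were below 0. An unadjusted p under 0.05 was reached there by 5 of the 7, and by 6344 of the 16638 genes. Averaged over treatments, 3 of the 7 fell and none rose, against 26.0% and 23.0% of all genes. Between the ABT-263 groups Rfx5 fell by 0.33 ± 0.10 and Nfyc by 0.31 ± 0.08 on the log2 scale.

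Of 12 other MHC class II pathway genes tested, 1 rose and 3 fell with hypoxia under vehicle, against 13.5% and 12.8% of all genes. H2-Oa and H2-Ob, the chains of the DO heterodimer that inhibits DM, fell by 0.86 ± 0.15 (adjusted p = 1.14e-04, edgeR) and 0.43 ± 0.11 (adjusted p = 0.00416, edgeR), beside H2-DMb2. March8, a ubiquitin ligase acting on surface receptors, rose by 0.23 ± 0.07. The protease genes Ctss, at -0.11 ± 0.11, and Lgmn, at 0.02 ± 0.08, did not pass, nor did the costimulatory ligand gene Cd86 at 0.11 ± 0.13. Under ABT-263, H2-DMb2, H2-Oa, H2-Ob and H2-Eb2 fell with hypoxia, and Ctsl and Cd86 rose, Cd86 by 0.64 ± 0.13 (adjusted p = 3.08e-04, edgeR).

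Among 10 MHC class I presentation genes, set beside class II, 1 rose and 3 fell with hypoxia under vehicle, against 13.5% and 12.8% of all genes. Psmb9, an immunoproteasome subunit, rose by 0.26 ± 0.09, and Tapbp, Tap2 and H2-D1 fell by 0.33 ± 0.08, 0.35 ± 0.08 and 0.27 ± 0.09. Under ABT-263, 3 rose, among them Nlrc5, the class I counterpart of CIITA, by 0.65 ± 0.20, and 2 fell. Of all genes, 17.9% rose and 21.3% fell there.

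Of the cDC1 receptors, Clec9a fell with hypoxia under vehicle and Xcr1 did not pass the test. Clec9a had 22.1, 25.8, 30.1, 28.5 and 26.4 CPM in normoxia vehicle and 13.7, 15.7 and 18.8 CPM (lowest, median, highest) in hypoxia vehicle. No library of one group reached the other, and the log2 fold change was -0.76 ± 0.11 (0.590-fold, adjusted p = 1.03e-05, edgeR). Between the ABT-263 groups, 22.4, 23.6 and 29.0 CPM (lowest, median, highest) in normoxia stood against 16.9, 18.3, 16.1, 15.6 and 23.1 CPM in hypoxia, where replicate 5 alone entered the normoxia range. That change was -0.46 ± 0.11 (adjusted p = 0.00136, edgeR).

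Clec9a reads were hard to assign. Its expected count was whole in 1 of 22 libraries, while the sum of Clec9a and its neighbour Clec1b was whole in 21 of 22 (tolerance 0.015), so reads had been divided between them. The 2 genes share 184 exon bases on the same strand. Clec1b, a platelet receptor gene, was at -0.42 ± 0.16 with hypoxia under vehicle (adjusted p = 0.0506) and fell by 0.74 ± 0.16 between the ABT-263 groups (adjusted p = 8.22e-04, edgeR). The end of Clec9a is 9 bases from the end of Clec1a on the other strand, a gene at 22.9 CPM per kb in normoxia vehicle. Clec1a fell by 0.60 ± 0.13 with hypoxia under vehicle (adjusted p = 0.00125, edgeR) and was at 0.01 ± 0.13 between the ABT-263 groups.

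On the per-kb scale Clec9a stood well above Xcr1, although both mark the same cells. Over the 22 libraries Clec9a and Xcr1 were weakly related (r = 0.244, and -0.25 after group means were removed). The genes most alike to Clec9a were Myzap (r = 0.935), Hpgd (r = 0.927) and Dll4, a Notch ligand of endothelium (r = 0.915), none of them on the cDC1 list. The part of Clec1a, Clec1b or of endothelial cells in the Clec9a change was not tested.

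Xcr1, the receptor for the chemokine XCL1, rested on 19 to 66 counts per library. It had 3.49, 4.94, 2.86, 3.64 and 3.98 CPM in normoxia vehicle and 1.79, 2.94 and 3.43 CPM (lowest, median, highest) in hypoxia vehicle. The groups overlapped, and -0.42 ± 0.22 did not pass (adjusted p = 0.158, edgeR), with an interval from -0.86 to 0.03 that spans both no change and a fall as deep as that of Clec9a. Between the ABT-263 groups it was at -0.20 ± 0.22. Its ligand gene Xcl1, made by NK and T cells, fell by 0.94 ± 0.30 with hypoxia under vehicle.

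Flt3, with 31 to 86 counts per library, fell with hypoxia under vehicle. It had 5.07, 5.993, 4.86, 5.995 and 5.70 CPM in normoxia vehicle and 2.78, 3.49 and 4.13 CPM (lowest, median, highest) in hypoxia vehicle. All hypoxia libraries lay below all normoxia libraries, and the log2 fold change was -0.66 ± 0.18 (0.633-fold, adjusted p = 0.00891, edgeR). With treatment read from the tag in place of the title it was -0.46 (adjusted p = 0.0640). Between the ABT-263 groups the libraries overlapped widely, from 3.20 to 6.25 CPM in normoxia and 5.84, 3.04, 4.75, 3.89 and 3.14 CPM in hypoxia, with a change of -0.18 ± 0.18 (adjusted p = 0.454, edgeR). The difference between those hypoxia effects, 0.48 ± 0.26, did not pass (adjusted p = 0.598, edgeR).

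Other dendritic cell genes gave a mixed account of hypoxia under vehicle, a comparison in which 13.5% of all genes rose and 12.8% fell. Of 9 further cDC1 genes tested, Wdfy4, needed for cross-presentation, fell by 0.57 ± 0.11 and the transcription factor gene Irf8 by 0.33 ± 0.08, and the endocytic receptor gene Ly75 rose by 0.32 ± 0.09. Of 7 cDC2 genes, Cd209a and Irf4 fell by 0.82 ± 0.12 and 0.87 ± 0.14, and Klf4 rose by 0.67 ± 0.16. Of 6 pan-dendritic and progenitor genes 3 fell, Kit by 1.03 ± 0.12, Dpp4 by 0.37 ± 0.06 and Spi1 by 0.55 ± 0.14, while Zbtb46 was at 0.17 ± 0.10. Called or not, 8 of the 9 cDC1, 6 of the 7 cDC2 and 4 of the 6 pan-dendritic and progenitor genes were below 0. Median log2 fold changes of these lists were -0.19, -0.19 and -0.21, and that of all genes tested was -0.0038.

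With hypoxia under vehicle, mature dendritic cell genes changed in both directions, and the plasmacytoid genes that passed the test fell. Of 10 mature dendritic cell genes, the lymph node homing receptor gene Ccr7 fell by 0.77 ± 0.12 and Relb by 0.23 ± 0.08, and Cd40, a costimulatory receptor, rose by 0.60 ± 0.08. Of 7 plasmacytoid genes 4 fell and none rose, Spib by 1.23 ± 0.14, where 12.8% of all genes fell. Values below 0 were found in 6 of the 7 plasmacytoid and 4 of the 10 mature dendritic cell genes. Between the ABT-263 groups 2 of 7 plasmacytoid genes fell, against 21.3% of all genes. Flt3l, the FLT3 ligand gene, was at -0.05 ± 0.10 with hypoxia under vehicle. Many of these genes are shared with B cells, T cells or macrophages, whose lists moved as well. Under vehicle 6 of 7 T cell, 5 of 7 NK cell and 7 of 8 monocyte genes fell with hypoxia, against 12.8% of all genes. The part of those cell types in the dendritic cell values was not tested.

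**Figure D4:**
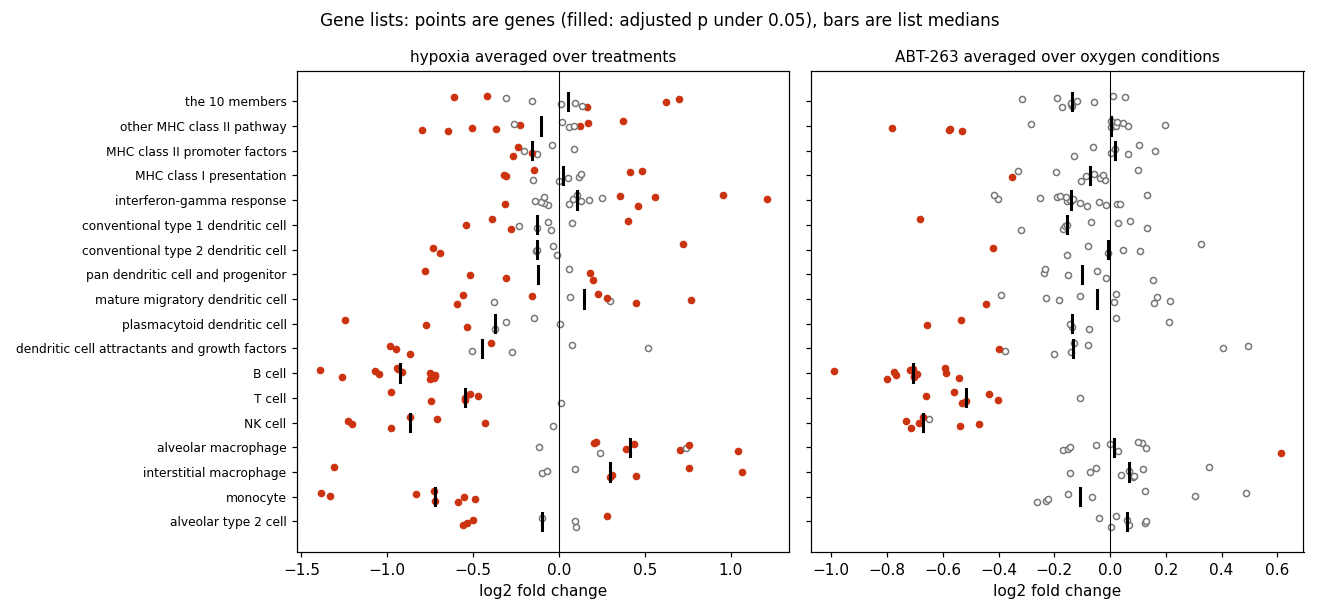
Rows are the 10 members and 17 other gene lists; points are genes at their log2 fold change for hypoxia averaged over treatments (left) and ABT-263 averaged over oxygen conditions (right), filled where the adjusted p is under 0.05, and bars are list medians. The members lie on both sides of 0 on the left, where all 12 B cell genes are lower, and on the right no member is filled while all 12 B cell genes are.

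With ABT-263 none of the 10 genes passed the edgeR test in either oxygen condition. In normoxia, where 0.535% of all genes were called, all 10 were below 0, against 46.3% of all genes, with log2 fold changes from -0.36 ± 0.14 for Ciita to -0.10 ± 0.10 for Clec9a. Values below 0 were not particular to the members. They were found in 9 of 10 class I presentation, 15 of 17 interferon-gamma response and 12 of 12 B cell genes. Of alveolar macrophage genes 4 of 10 were below 0, and of alveolar type 2 cell genes 0 of 7. An unadjusted p under 0.05 was reached by 5 of the 10 members, the 3 classical chains, H2-DMa and Ciita, and by 2166 of the 16638 genes. H2-Aa, at -0.31 ± 0.09, had an adjusted p of 0.122 by edgeR and 0.0325 by DESeq2, the latter the only DESeq2 call of a member there, and limma-voom called none. In hypoxia, where 0.301% of all genes were called, 5 were below 0 (51.9% of all genes), none had an unadjusted p under 0.05 (14.3% of all genes), and neither DESeq2 nor limma-voom called any. Values there ran from -0.27 ± 0.14 for Ciita to 0.25 ± 0.19 for Flt3, and the 95% interval of H2-Aa was -0.23 to 0.16.

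Averaged over oxygen conditions, where 2.54% of all genes were called, Ciita came nearest to the threshold at -0.32 ± 0.10 (adjusted p = 0.0896, edgeR), and 2 of 10 members had an unadjusted p under 0.05, against 17.3% of all genes. DESeq2 called Ciita, with an adjusted p of 0.0475, and limma-voom called no member. Without replicate 6 of hypoxia vehicle edgeR gave Ciita -0.36 (adjusted p = 0.0394).

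The effect of ABT-263 did not differ between oxygen conditions beyond the test's threshold for any member. The difference of the effects, hypoxia minus normoxia, was above 0 for all 10 genes, from 0.09 ± 0.20 for Ciita to 0.48 ± 0.26 for Flt3, whereas 53.3% of all genes were below 0. H2-Aa, at 0.28 ± 0.13, alone had an unadjusted p under 0.05 (0.0428, adjusted 0.520, edgeR), as did 9.29% of all genes. By edgeR 0% of all genes were called, and DESeq2 called 17 genes, none of them a member.

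H2-DMb2, H2-Oa and H2-Ob, outside the 10, did fall with ABT-263 in normoxia, by 0.56 ± 0.11 (adjusted p = 0.0224, edgeR), 0.64 ± 0.14 (adjusted p = 0.0391, edgeR) and 0.64 ± 0.11 (adjusted p = 0.0218, edgeR). The H2-DMb2 call was lost without the 3 libraries of conflicting labels (-0.52, adjusted p = 0.0664), with treatment read from the tag (-0.40, adjusted p = 0.551) and when only the groups compared were fitted (adjusted p = 0.0671). Without replicate 4 of normoxia vehicle, or replicate 4 of normoxia ABT-263, only 1 gene in all was called in normoxia. In those fits at most 1 of these calls, or of the B cell calls below, held. Without replicate 1 of normoxia ABT-263, a library of conflicting labels, 2 genes were called, so at most 2 of those calls held. Without replicate 3 of normoxia vehicle 21 genes were called. In hypoxia H2-Ob fell by 0.51 ± 0.11 (adjusted p = 0.0415, edgeR) and H2-Eb2 by 0.90 ± 0.20 (adjusted p = 0.0497, edgeR), both close to the threshold. H2-DMb2, without overlap between groups, was just above it at -0.50 ± 0.11 (adjusted p = 0.0507, edgeR). Of all genes, 0.427% fell with ABT-263 in normoxia and 0.186% in hypoxia. Of the 12 B cell genes 7 fell with ABT-263 in each oxygen condition and 12 averaged over both, with summed levels of 273 to 382 CPM in normoxia ABT-263 against 375 to 657 CPM in normoxia vehicle. Their part in these values was not tested.

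Within groups the class II genes rose and fell together from library to library. After each group's mean was removed, log2 CPM over 22 libraries gave r = 0.938 for H2-Aa with H2-Ab1, 0.933 for H2-Aa with H2-Eb1, 0.928 for H2-Eb1 with Cd74 and 0.859 for H2-Eb1 with H2-DMa. H2-DMb1 was less close to the chains, with r = 0.695 for H2-Aa, and Ciita had r = 0.595 with H2-Aa. Across libraries with group means kept, H2-DMb1 and Ciita had r = 0.841, and H2-DMb1 and H2-DMb2 had r = -0.47 but 0.519 within groups. These values describe libraries that share scaling and tissue composition.

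Outside the 10, the genes nearest to the mean of H2-Aa, H2-Ab1, H2-Eb1 and Cd74 within groups were the class I heavy chain gene H2-D1 (r = 0.875), Ptpre, Arhgap24, Cdk2ap2 and Ifi30, a thiol reductase of the class II pathway (r = 0.809). Those nearest to the mean of Xcr1 and Clec9a were Nras (r = 0.774), Egfr, Mtss1, Zc4h2 and Eloa, and those nearest to Flt3 were Smarcd1 (r = 0.804), Vac14, Zfp710, Rnd1 and Prrt4. None of the genes named beside Xcr1, Clec9a and Flt3 was on a dendritic cell list.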

How the data were processed

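The deposited table holds expected counts per gene, which need not be whole numbers; per the submitters' processing notes reads were handled with Trimmomatic, STAR, RSEM and GRCm38, with no versions given. Per the labels' protocols the libraries were made with a kit that marks strand; the strand setting of the counting is not given in the sources used here. Expected counts were rounded, genes were filtered with filterByExpr at a minimum count of 10, and edgeR 4.0.16 (R 4.3.3, TMM factors, robust quasi-likelihood fit) was run on all 22 libraries in 4 title groups, with 7 contrasts. CPM are counts scaled to the total of the filtered genes in each library, multiplied by its TMM factor. Gene models are GENCODE on GRCm38. Correlations used log2 CPM with a prior count of 2. Replicates are numbered in accession order. Pairs of libraries of 1 group differed by more than counting noise, with a chi-square per gene from 5.35 to 39.0.

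The members and the gene lists were chosen with earlier results of these data known. Named genes are all 10 members, from each list at most 4 genes, by lowest p, and the 5 genes most alike to each of 4 anchors; Ctss, Lgmn, Cd86, Zbtb46, Flt3l, Clec1a, Clec1b, the class II genes named with ABT-263, Gbp4, Nlrc5 and the neighbours across libraries of Clec9a, Ciita and the DM genes were named after their values were seen, as was the DM ratio. Alternatives were DESeq2 1.42.0, limma-voom (limma 3.58.1), RLE factors, library totals, 2 other filters, the compared groups alone, each library left out, and 2 readings of the conflicting labels; leaving out normoxia ABT-263 replicates 2 and 6 was added after seeing the data. A gene among those most alike to H2-DMb2 is not reported here. The scripts were tested on simulated counts. Precision was lowest for Xcr1 and Flt3, which had the fewest counts.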

Additional observations from a re-analysis of the deposited data

Results flagged for a closer look

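None of the 10 members had a library far from the rest of its group. Among 60 groups of values examined, 3 had 1 library apart by Dixon's criterion, which chance gives in about 1 of 20. H2-Oa was at 16.3 CPM in normoxia vehicle replicate 4, the other 4 libraries lying at 10.7 to 12.1 CPM. H2-Ob was at 39.3 CPM in normoxia ABT-263 replicate 2, with the others at 25.5 to 30.5 CPM, and at 29.95 CPM in hypoxia ABT-263 replicate 3, with the others at 21.3 to 23.6 CPM.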

How the results depend on the processing

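The 4 calls for hypoxia with vehicle held in all 22 fits that left out 1 library and in every other alternative except treatment read from the tag, which gave 3 (Flt3 lost). For hypoxia with ABT-263 the count was 5, 4 to 6 with 1 library left out and 6 with the compared groups alone. H2-Aa averaged over treatments (0.16, adjusted p = 0.0432, edgeR) was lost in 10 of 22 such fits, with library totals (adjusted p = 0.0722) and with no filter (adjusted p = 0.0672). DESeq2 called 1 member for ABT-263 in normoxia and 1 averaged over oxygen conditions, where leaving out 1 library gave 0 to 1; the cause was not tested. Genes called overall for ABT-263 in normoxia were 89, 1 to 183 with 1 library left out and 324 by DESeq2; in hypoxia 50, 3 to 228 and 247. No paired analysis was possible because the replicate numbers follow accession order.

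Signs changed only for values that passed no test, and the cause was not tested. With library totals, H2-Aa and H2-Ab1 in hypoxia with vehicle were -0.0021 and -0.023. H2-Ab1 there was -0.0026 with no filter, -0.0077 without the 3 libraries of conflicting labels and -0.0064 without normoxia ABT-263 replicates 2 and 6. With treatment from the tag H2-DMa there was 0.0068, and Cd74 in hypoxia with ABT-263 was 0.013 (0.036 without the 3 libraries). For ABT-263 in hypoxia, the tag gave H2-Aa 0.047, H2-Ab1 0.065, H2-DMa -0.036, Cd74 0.070 and Flt3 -0.025, and leaving out the 3 libraries gave H2-Aa 0.016, H2-Ab1 0.044, H2-DMa -0.020 and Cd74 0.034. H2-Ab1 there was 0.0062 by DESeq2 and with RLE factors, 0.020 with library totals, 1.6e-05 with no filter, 0.00094 with the compared groups alone and 0.0025 without replicates 2 and 6. Leaving out 1 library gave ranges across 0 for hypoxia with vehicle in H2-Aa (-0.022 to 0.065), H2-Ab1 (-0.047 to 0.040) and H2-DMa (-0.12 to 0.0060), and for hypoxia with ABT-263 in Cd74 (-0.19 to 0.0064). For ABT-263 in hypoxia such ranges were -0.075 to 0.017 in H2-Aa, -0.053 to 0.049 in H2-Ab1, -0.039 to 0.059 in H2-Eb1, -0.051 to 0.073 in H2-DMa, -0.17 to 0.079 in Cd74 and -0.17 to 0.061 in Xcr1.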
